A study of Mus musculus with 6 samples.

Results

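Transcripts of 10 genes that mark microglia, the resident macrophages of the brain, were followed in sorted nuclei of Foxp2-positive neurons from the medial prefrontal cortex (mPFC) of mice. The genes are Csf1r, Itgam, Cx3cr1, P2ry12, Tmem119, C1qa, C1qb, C1qc, Aif1 and Trem2. They were taken by symbol from the deposited count table, and all 10 were found among its 24421 genes and passed the filter on low counts, which left 13560 genes. The 3 CFA libraries came from Foxp2-Cre mice given CFA (complete Freund's adjuvant, an irritant suspension that causes long-lasting inflammation and pain), and the 3 saline libraries from Foxp2-Cre mice given saline. In both groups the mPFC had been injected on both sides, 4 weeks before collection, with an adeno-associated virus carrying KASH-GFP, a green fluorescent protein anchored in the nuclear envelope, and 10000 sorted nuclei went into each library. Cre in this line is driven by Foxp2, so the label marks nuclei with Foxp2-driven Cre that took up the virus. Strain background, age and the time between CFA or saline and collection are not given in the labels, nor whether each library came from its own animal, so p-values reflect only library-to-library spread, part of which may be technical. No unsorted sample was analysed here.

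Microglia arise from yolk sac precursors and depend on the receptor CSF1R, whose ligands are CSF1 and the largely neuronal cytokine IL-34. They survey the tissue through CX3CR1, the receptor of the neuronal chemokine fractalkine (CX3CL1), and through P2RY12, which senses nucleotides released by damaged cells, and they make most of the C1q of the brain, the recognition molecule of the classical complement cascade. In the spinal cord, microglia and their P2X4 receptor, CSF1R signalling and cytokines are studied as contributors to persistent pain.

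Promoter sequences of 7 of the 10 genes were in the RefSeq table for GRCm38.p6, and those of P2ry12, C1qb and C1qc are shown because they were the ones holding AGGAAGT, a core of the sites bound by PU.1, the master transcription factor of macrophages. Each run covers the 250 bases before the start site, 5′ to 3′ on the coding strand, and capitals mark the match, read as AGGAAGT or as its reverse complement ACTTCCT. The windows are chr3:59262986-59263235 for P2ry12, chr4:136886201-136886450 for C1qb and chr4:136892915-136893164 for C1qc, all on the minus strand. The gene models used for counting start at 59262831 for P2ry12 and 136886177 for C1qb, downstream of these start sites. For C1qc the model starts at the site itself. Distances to the start site refer to the promoter set, not to the counted models.
P2ry12: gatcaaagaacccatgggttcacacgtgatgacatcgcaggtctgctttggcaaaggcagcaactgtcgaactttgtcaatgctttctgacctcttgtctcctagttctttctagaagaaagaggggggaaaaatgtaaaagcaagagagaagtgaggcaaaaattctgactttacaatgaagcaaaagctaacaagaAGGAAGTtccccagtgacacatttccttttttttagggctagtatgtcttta
C1qb: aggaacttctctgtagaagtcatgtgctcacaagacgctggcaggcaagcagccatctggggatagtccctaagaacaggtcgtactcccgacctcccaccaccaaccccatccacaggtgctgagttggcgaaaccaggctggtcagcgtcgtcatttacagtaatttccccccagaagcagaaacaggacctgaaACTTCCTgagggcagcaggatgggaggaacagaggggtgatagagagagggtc
C1qc: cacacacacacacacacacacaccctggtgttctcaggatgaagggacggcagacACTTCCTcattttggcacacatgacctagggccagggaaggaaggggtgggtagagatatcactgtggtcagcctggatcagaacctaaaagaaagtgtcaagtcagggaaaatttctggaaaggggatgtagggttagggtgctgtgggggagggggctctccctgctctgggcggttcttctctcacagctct
On either strand AGGAAGT was present in 3 of 7 of these promoters, beside 7.69% of 32851 promoter windows of the same length. The match began 52 bases before the start site in P2ry12, 53 bases before it in C1qb and 195 bases before it in C1qc. The core of the interferon response element was found on either strand in Aif1 alone of the 7, beside 2.98% of all windows. The composite element of ETS and IRF factors was in 0 of 7 (2.30% of all windows) and TATAAA in 0 of 7 (12.4%). The interferon and composite elements share letters and can overlap each other, and the composite element can overlap AGGAAGT. These matches describe letters in the window and show no binding.

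Total counts ranged from 9673038 to 11850741 per library, and 1 count was worth 0.0832 to 0.101 CPM (counts scaled to a common library size with TMM factors). Slc17a7, the vesicular glutamate transporter of cortical excitatory neurons in general, was abundant in every library and lay between 1931 and 2645 CPM in CFA libraries and between 1947 and 2290 CPM in saline libraries. Foxp2, the gene of the sort, was much lower and lay between 24.0 and 34.9 CPM in CFA libraries and between 28.3 and 43.7 CPM in saline libraries. Saline replicate 3 stood apart from the other libraries on the first principal component, at -50.4, where the rest lay between -19.0 and 35.8. In RNA from many nuclei, fewer nuclei of a type and less RNA per nucleus cannot be told apart.

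The 10 microglia transcripts were all low beside Slc17a7. Their summed level was 63.6, 82.3 and 36.5 CPM in CFA libraries, replicates 1 to 3, and 52.3, 30.8 and 36.1 CPM in saline libraries. The sums rested on 765, 933 and 380 counts in CFA libraries and on 585, 332 and 356 counts in saline libraries. The groups overlapped: CFA replicates 1 and 2 were above all saline libraries, while CFA replicate 3 was at the level of saline replicate 3. The mean was 60.8 ± 23.0 CPM in the CFA group and 39.7 ± 11.2 CPM in the saline group (SD, n = 3 each), a log2 ratio of 0.61. It was 0.33 without CFA replicate 2, which was the highest library for 6 of the 10 genes.

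Levels of different genes were compared per kilobase of exon. By their mean over all 6 libraries the order was C1qb (9.01 CPM per kb), C1qc (7.11), C1qa (4.27), Aif1 (4.12), P2ry12 (2.94), Tmem119 (2.10), Csf1r (2.01), Trem2 (1.37), Cx3cr1 (0.913) and Itgam (0.202 CPM per kb). C1qb and C1qc thus led and the integrin Itgam was last, while C1qa was above Aif1 in 3 of 6 libraries. Of the 9 pairs of neighbours in this order only C1qc and C1qa, and Cx3cr1 and Itgam, differed by more than the SD of their difference over the libraries, so the middle of the order is not resolved. On the same scale, the mean level over all libraries was 752 CPM per kb for Slc17a7 and 4.45 CPM per kb for Foxp2. Foxp2, the gene that defined the sort, was thus at a lower length-scaled mean than C1qb and C1qc, an order not compared in single libraries. By CPM without length scaling, Foxp2 was above both in every library. It was at 24.0 CPM or more, against at most 16.3 CPM for C1qb and 14.6 CPM for C1qc.

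**Figure D1:**
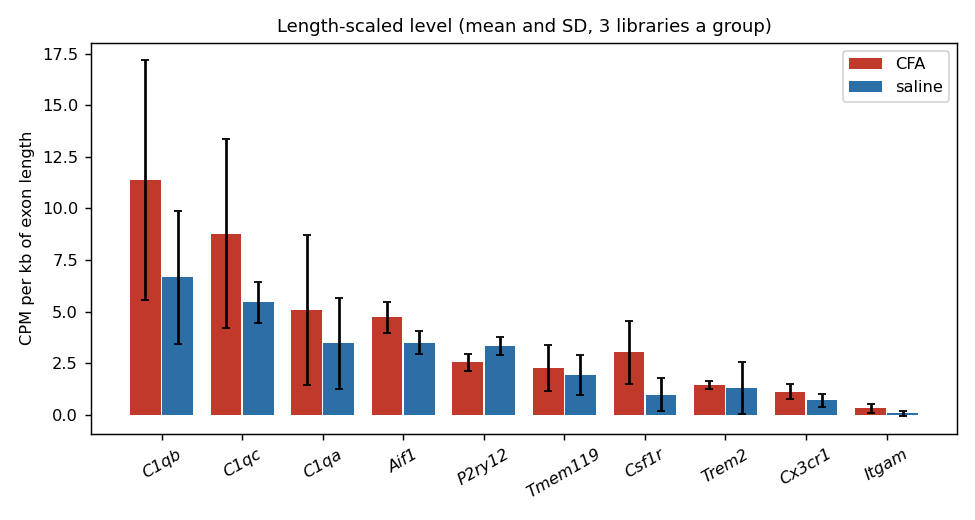
Length-scaled level of each microglia transcript, in CPM per kb of exon, as group means with SD (3 CFA and 3 saline libraries), ordered by the mean over all 6 libraries. C1qb and C1qc have the tallest bars and Itgam the lowest, and most error bars of the 2 groups overlap.

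CFA was set against saline to ask whether these transcripts differed between mice given CFA and controls. Of the 10 genes 0 passed the 0.05 threshold of the quasi-likelihood test of edgeR, fitted over all genes with Benjamini-Hochberg adjusted p-values, where 0.0% of all 13560 genes tested did. At an unadjusted p under 0.05 there was 1 of the 10 genes, Csf1r, beside 1.35% of all genes tested on the higher side and 1.87% on the lower side. The log2 fold change, CFA minus saline, was positive for 9 of 10 genes, where 49.8% of all genes tested were positive. Their median log2 fold change was 0.61, against -0.0011 over all genes tested. Leaving out CFA replicate 2 lowered that median to 0.29, and leaving out saline replicate 1 raised it to 0.98. The 95% interval of the log2 fold change included 0 for 9 of the 10. The narrowest interval was that of P2ry12, -1.21 to 0.42, and the widest that of Itgam, -0.41 to 4.83. The upper bound was above 1, a 2-fold difference, for the other 9 genes.

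**Figure D2:**
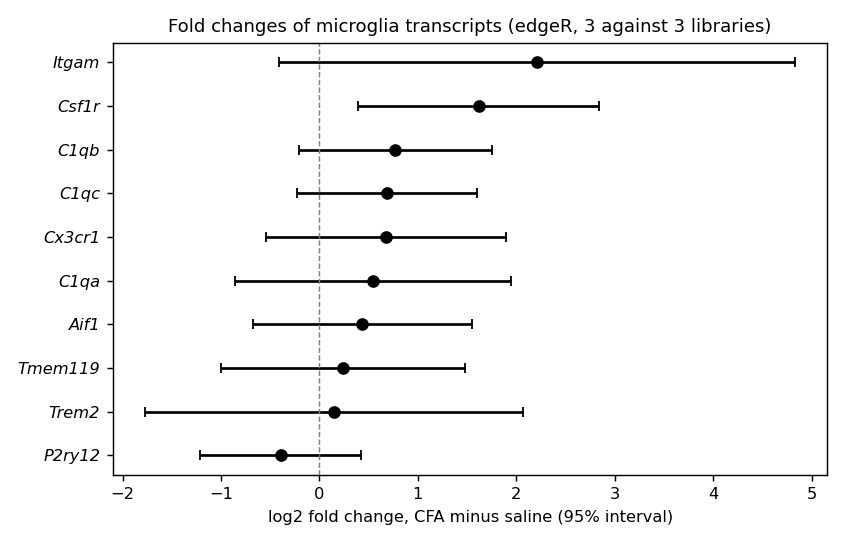
Log2 fold change of each microglia transcript, CFA minus saline, with its 95% interval from edgeR's quasi-likelihood fit (3 against 3 libraries). P2ry12 is the one gene left of 0, and Csf1r is the one gene whose interval, 0.39 to 2.84, does not reach 0.

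Among the receptors, Csf1r had the smallest p. Csf1r (chromosome 18, 61105572 to 61131139, plus strand, mm10) encodes the tyrosine kinase receptor that microglia need to survive. It was at 12.2, 17.5 and 5.67 CPM in CFA libraries and at 7.34, 1.21 and 2.94 CPM in saline libraries. CFA replicates 1 and 2 were above every saline library, but CFA replicate 3 was below saline replicate 1, so the groups overlapped. The means were 11.8 ± 5.91 CPM in the CFA group and 3.83 ± 3.16 CPM in the saline group, which gave a log2 fold change of 1.62 ± 0.57 (SE). In edgeR's quasi-likelihood fit its unadjusted p was 0.0131 and its adjusted p 0.99997. The low end was saline replicate 2, whose 13 counts give an exact Poisson interval of 0.642 to 2.06 CPM, which covers counting error only. Leaving that library out gave a log2 fold change of 1.19, and leaving out saline replicate 1 gave 2.51. Csf1r supplied 19.2%, 21.2% and 15.5% of the summed microglia level in CFA libraries and 14.0%, 3.92% and 8.15% in saline libraries. Unlike its CPM, these shares did not overlap, but the closest, 15.5% and 14.0%, lay near each other. The sum includes Csf1r itself, and no background over all genes was set beside the shares.

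Cx3cr1 (chromosome 9, 120048683 to 120068296, minus strand), the fractalkine receptor, followed the pattern of Csf1r over the libraries. It was at 3.74, 5.73 and 3.17 CPM in CFA libraries and at 3.94, 2.04 and 1.93 CPM in saline libraries. Saline replicate 1 lay inside the CFA range and the other saline libraries below it. Its fold change on the log2 scale was 0.67 ± 0.57 (SE, edgeR unadjusted p = 0.256), or 0.39 with CFA replicate 2 left out and 1.08 with saline replicate 1 left out. The correlation of log2 CPM between Cx3cr1 and Csf1r was 0.92 over the 6 libraries, the highest of the 45 pairs of microglia genes, and is given as a description of libraries that share their preparation.

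P2ry12 (chromosome 3, 59216271 to 59262831, minus strand), the purinergic receptor used as a marker of resting microglia, ran against the other genes. It was at 6.82, 4.85 and 6.15 CPM in CFA libraries and at 6.71, 8.81 and 7.90 CPM in saline libraries. It was highest in saline replicate 2, where Csf1r, C1qa, Tmem119 and Trem2 were at their lowest, and lowest in CFA replicate 2, where 6 of the 10 genes were at their highest. On the log2 scale the fold change was -0.39 ± 0.38 (SE, edgeR unadjusted p = 0.32), and the groups overlapped. Its correlation with each of the other 9 genes over the 6 libraries was negative, from -0.91 with Cx3cr1 to -0.43 with Aif1. P2ry12 made up 10.7%, 5.90% and 16.8% of the summed level in CFA libraries and 12.8%, 28.6% and 21.9% in saline libraries.

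The whole of P2ry12 lies within the span of Med12l, a gene on the opposite strand, without sharing exon sequence with it. The library kits do not mark strand, so reads from an intron of Med12l that fall on P2ry12 exons would count for P2ry12. Med12l itself, a Mediator kinase module subunit, was at 19.2, 17.5 and 15.7 CPM in CFA libraries and at 15.7, 7.23 and 34.9 CPM in saline libraries. Counted over its exons, Med12l was thus lowest in saline replicate 2, where P2ry12 was highest. Reads of Med12l introns were not counted in the table, and their part in the P2ry12 values was not tested. No other microglia gene overlapped a gene with counts. Without P2ry12 the summed level had a log2 ratio of 0.78, an alternative chosen after the values were seen.

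Trem2 (chromosome 17, 48346401 to 48352276, plus strand), a receptor for lipids and apolipoproteins that signals through the adaptor TYROBP, had similar group means and a wide spread in saline libraries. It was at 1.66, 1.85 and 1.44 CPM in CFA libraries and at 2.95, 0.0927 and 1.42 CPM in saline libraries. The saline libraries thus held both the highest and the lowest value, with CFA libraries close together between them. Saline replicate 2 had 1 count of Trem2, with an exact Poisson interval of 0.00235 to 0.517 CPM, and the other 5 libraries had 14 to 33 counts. Trem2 had a log2 fold change of 0.15 ± 0.90 (SE), with a 95% interval of -1.77 to 2.06, or -0.40 without saline replicate 2 and 1.129 without saline replicate 1.

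Itgam (chromosome 7, 128062640 to 128118491, plus strand), which encodes the CD11b chain of complement receptor 3, was near the limit of detection. It had 30, 19 and 5 counts in CFA libraries and 0, 0 and 10 counts in saline libraries, or 2.496, 1.68 and 0.481 CPM in the CFA group and 0, 0 and 1.01 CPM in the saline group. As a one-sided limit, a count of 0 allows up to 3 counts, 0.268 CPM in saline replicate 1 and 0.278 CPM in saline replicate 2. CFA replicate 3 lay below saline replicate 3, so the groups overlapped. The log2 fold change of 2.21 ± 1.23 (SE, edgeR unadjusted p = 0.0925) rested on saline replicate 3 alone for the saline level. The integrin chain that pairs with it, Itgb2, had 0 counts in 4 of 6 libraries, with 12 counts in CFA replicate 2 and 13 counts in saline replicate 2.

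**Figure D3:**
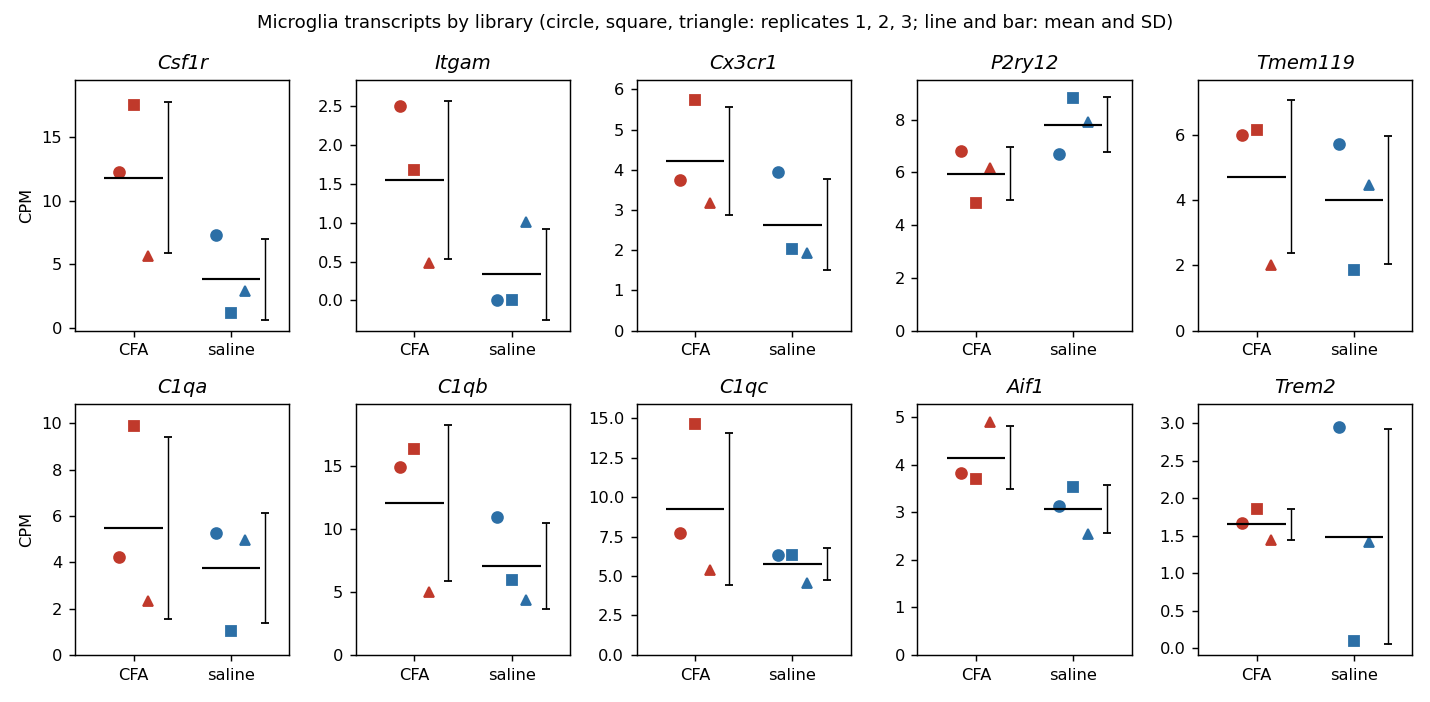
CPM of each microglia transcript in every library, with CFA on the left and saline on the right of each panel, a marker shape per replicate, and the mean and SD. Aif1 is the one gene whose groups do not overlap, and CFA replicate 3 (triangle) sits below the other CFA libraries for 8 of the 10 genes.

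The complement genes C1qa, C1qb and C1qc encode the chains of C1q and lie side by side on the minus strand of chromosome 4. C1qb spans 136880145 to 136886177, C1qc spans 136889802 to 136892914, and C1qa spans 136895916 to 136898844. C1qb, the most abundant of the 10 by CPM, was at 14.9, 16.3 and 4.999 CPM in CFA libraries and at 10.9, 5.93 and 4.36 CPM in saline libraries. C1qc was at 7.74, 14.6 and 5.38 CPM in CFA libraries and at 6.35, 6.31 and 4.56 CPM in saline libraries. For both genes CFA replicates 1 and 2 were above all saline libraries, and CFA replicate 3 was within the saline range. C1qa was at 4.24, 9.88 and 2.31 CPM in CFA libraries and at 5.28, 1.02 and 4.97 CPM in saline libraries. Its CFA range contained all saline values but that of replicate 2, the lowest of the 6. Log2 fold changes were 0.77 ± 0.46 for C1qb, 0.69 ± 0.43 for C1qc and 0.54 ± 0.65 for C1qa (SE), with edgeR unadjusted p-values of 0.115, 0.129 and 0.419. Without CFA replicate 2 the log2 fold change of C1qa was -0.19, that of C1qc 0.19 and that of C1qb 0.50.

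The proportions of the C1q chains were not constant. C1qb and C1qc kept close to each other over the libraries, with a correlation of log2 CPM of 0.83, against 0.59 for C1qa with C1qb and 0.54 for C1qa with C1qc. C1qa made up 15.8%, 24.2% and 18.2% of the summed C1q CPM in CFA libraries and 23.4%, 7.69% and 35.8% in saline libraries. The saline libraries thus included both the lowest share, in replicate 2, and the highest, in replicate 3. The lowest share rested on 11 counts of C1qa. The summed C1q level was 26.8 ± 14.1 CPM in the CFA group and 16.6 ± 5.19 CPM in the saline group, and made up 34.7% to 49.6% of the summed microglia level in CFA libraries and 38.5% to 43.1% in saline libraries.

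Tmem119 and Aif1 are a membrane protein typical of resident microglia and the calcium-binding protein known as IBA1. Tmem119 (chromosome 5, 113793729 to 113800352, minus strand) was at 5.99, 6.17 and 2.02 CPM in CFA libraries and at 5.73, 1.85 and 4.46 CPM in saline libraries. Each group had 1 low library, CFA replicate 3 and saline replicate 2, and the log2 fold change was 0.24 ± 0.58 (SE), or -0.10 without saline replicate 2. Aif1 (chromosome 17, 35170992 to 35176001, minus strand) was at 3.83, 3.70 and 4.90 CPM in CFA libraries and at 3.13, 3.52 and 2.53 CPM in saline libraries. It was the only one of the 10 genes whose groups did not overlap, beside 3.55% of all genes tested without overlap and higher in CFA. The margin was small: the lowest CFA value was 3.70 CPM and the highest saline value 3.52 CPM, or 42 and 38 counts. The log2 fold change of Aif1 was 0.43 ± 0.52 (SE, edgeR unadjusted p = 0.419). CPM of Aif1 gave p = 0.1 in an exact permutation test (two-sided), the minimum possible with 3 against 3. For the other 9 genes that exact permutation test gave p-values of 0.2 to 0.7.

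The genes differed in how far they varied over the libraries. An index of dispersion, the variance over the 6 libraries relative to counting error alone, for which counting error gives about 1, was 50.7 for Csf1r, 30.5 for C1qb, 22.1 for C1qa and 19.4 for C1qc. It was 1.78 for Aif1 and 3.01 for P2ry12, with the other 4 between 5.84 and 11.6. The median of the 10 genes was 10.7, beside 7.12 for the 3390 genes tested whose mean CPM lay in their range. The highest library exceeded the lowest 31.8-fold for Trem2, whose lowest library had 1 count, and 14.5-fold for Csf1r. The ratio was 1.93-fold for Aif1 and 1.82-fold for P2ry12. Itgam, with 0 counts in saline replicates 1 and 2, had no such ratio. Its SD over the libraries was 105% of its mean, the largest of the 10, against 77.9% for Csf1r. For the same relative spread the index is lower for genes with few counts, such as Itgam and Trem2. The correlation of each gene with the mean of the other 9 ran from 0.95 for Csf1r to 0.04 for Aif1 and -0.82 for P2ry12. Of the 45 pairs of genes 12 had a negative correlation, 9 of them with P2ry12, and the median over all pairs was 0.42.

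**Figure D4:**
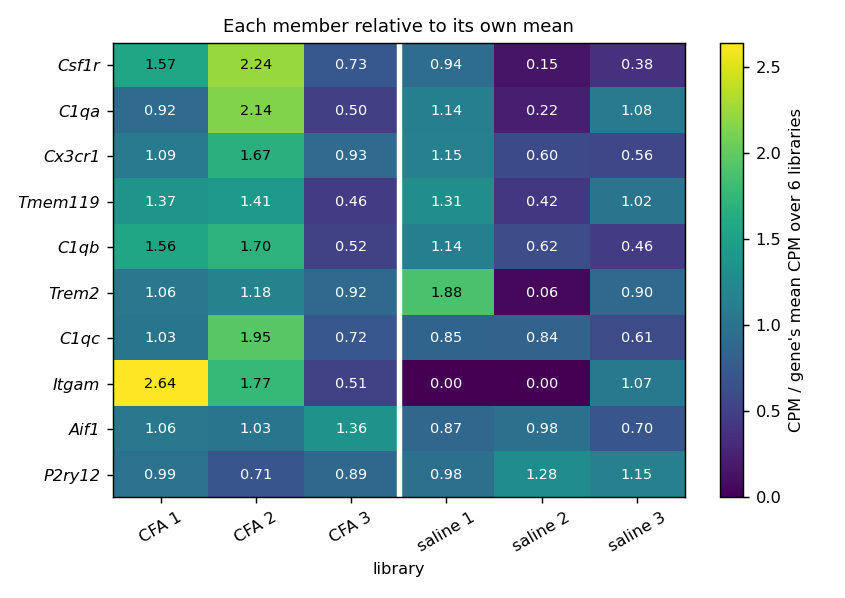
CPM of each microglia transcript divided by its own mean over the 6 libraries, with CFA libraries left of the white line and rows ordered by the correlation with the mean of the other 9 genes. The upper rows are bright in CFA replicate 2 and dark in saline replicate 2, and the P2ry12 row runs the other way.

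The ligands of these receptors were measured in the same nuclei. Cx3cl1, which encodes fractalkine, was at 1427, 1495 and 1701 CPM in CFA libraries and at 1285, 1729 and 1198 CPM in saline libraries, with a log2 fold change of 0.13 ± 0.18 (SE). Il34, a ligand of CSF1R made by neurons, was at 110.0, 132 and 119 CPM in CFA libraries and at 111, 117 and 110.0 CPM in saline libraries, with a log2 fold change of 0.09 ± 0.16. Both ligands were far above their receptors, at 469 CPM per kb for Cx3cl1 and 62.7 CPM per kb for Il34 over all libraries, and overlapped between groups. Csf1, the other ligand of CSF1R, was at 18.4, 13.8 and 9.23 CPM in CFA libraries and at 9.75, 4.27 and 7.80 CPM in saline libraries. CFA replicate 3 lay below saline replicate 1, as it did for Csf1r. Its log2 fold change was 0.92 ± 0.38 (edgeR unadjusted p = 0.0286, adjusted p = 0.99997). Of the 3 ligands 0 passed the adjusted threshold.

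Transcription factors of the myeloid lineage were at or below the limit of the filter. Of 8 genes, 3 were tested, with a median log2 fold change of 0.20, and 0 passed in either direction. Spi1, which encodes PU.1, had 6, 15 and 5 counts in CFA libraries and 10, 2 and 8 counts in saline libraries, and Runx1 had 0 counts in all 6. Irf8, an interferon regulatory factor of microglia, was at 3.66, 1.85 and 2.21 CPM in CFA libraries and at 0.716, 4.54 and 1.62 CPM in saline libraries. It did not follow the microglia genes, being highest in saline replicate 2, where Csf1r was lowest.

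Of 22 other genes enriched in microglia, 19 were tested, with 14 positive and 5 negative values, a median log2 fold change of 0.12, and 0 that passed in either direction. Cst3, which encodes cystatin C and is also transcribed in other brain cells, was at 231, 338 and 261 CPM in CFA libraries and at 367, 243 and 209 CPM in saline libraries. Fcrls, a receptor-like scavenger protein of mouse microglia, had the smallest p of the list. It was at 2.16, 3.62 and 2.02 CPM in CFA libraries and at 0.984, 0.649 and 1.52 CPM in saline libraries, without overlap, with a log2 fold change of 1.30 ± 0.72 (edgeR unadjusted p = 0.0911). Of the 19 tested genes 2 were higher in CFA without overlap, Fcrls and Sparc, beside 3.55% of all genes tested. Ptprc, which encodes the leukocyte antigen CD45, had 1 count in all 6 libraries together.

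Partners of TREM2 and of the integrin gave 3 positive and 3 negative values among 6 tested of 10 genes, a median log2 fold change of 0.02, and 0 passed. Tyrobp, the adaptor of TREM2, was at 0.832, 3.79 and 1.54 CPM in CFA libraries and at 3.04, 1.30 and 1.01 CPM in saline libraries (chosen after its values were seen). Apoe, a lipid carrier bound by TREM2 and made mainly by astrocytes, was at 110.4, 165 and 91.7 CPM in CFA libraries and at 117, 84.1 and 84.7 CPM in saline libraries, with a log2 fold change of 0.36 ± 0.22. Clu, another lipid carrier, was at 399, 472 and 466 CPM in CFA libraries and at 449, 541 and 408 CPM in saline libraries. The groups overlapped for each of these genes.

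Of 18 complement genes 11 were tested, with 7 positive and 4 negative values, a median log2 fold change of 0.18 and 0 that passed. The list includes C1qa, C1qb and C1qc, and the 8 tested genes without them gave 4 positive and 4 negative values and a median of 0.03. C4b, a complement component downstream of C1q, was at 1.997, 5.64 and 0.769 CPM in CFA libraries and at 0, 0.185 and 1.11 CPM in saline libraries. Its log2 fold change was 2.695 ± 1.10 (edgeR unadjusted p = 0.0276), and its groups overlapped. C4b has a near-identical copy, C4a, and how reads fitting both were counted is not given, so its level is uncertain. The neuronal complement regulator Csmd1 was at 96.8, 106 and 70.0 CPM in CFA libraries and at 105, 87.4 and 154 CPM in saline libraries, with a log2 fold change of -0.35 ± 0.23. Csmd2, its relative, was at 71.9, 63.9 and 56.8 CPM in CFA libraries and at 61.9, 50.6 and 95.9 CPM in saline libraries. Both were highest in saline replicate 3.

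Genes raised in disease-associated microglia, a state described in mouse models of neurodegeneration, gave 8 positive and 3 negative values among 11 tested of 18, with a median log2 fold change of 0.13 and 0 that passed. Itgax, a defining gene of that state, had 0 counts in all 6 libraries. B2m, the light chain of MHC class I and also expressed by neurons, was at 56.5, 82.8 and 87.7 CPM in CFA libraries and at 66.4, 47.1 and 42.9 CPM in saline libraries. Its log2 fold change was 0.54 ± 0.23 (edgeR unadjusted p = 0.0325), and the groups overlapped. Ctsb, a lysosomal protease whose exons overlap Fdft1 on the opposite strand, was at 1058, 1289 and 1439 CPM in CFA libraries and at 1210, 1358 and 901 CPM in saline libraries. Fth1, the heavy chain of ferritin, was at 553, 815 and 768 CPM in CFA libraries and at 809, 810 and 615 CPM in saline libraries.

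Genes studied in microglia of pain models gave 6 positive and 2 negative values among 8 tested of 20, a median log2 fold change of 0.16, and 0 passed. The cytokine genes Tnf and Il6, the endotoxin receptor gene Tlr4 and the nitric oxide synthase gene Nos2 had 0 counts in all 6 libraries. Il18, an inflammasome cytokine, was at 7.57, 8.82 and 4.42 CPM in CFA libraries and at 5.10, 5.47 and 5.47 CPM in saline libraries. Bdnf, a growth factor that cortical neurons also express, was at 40.3, 59.8 and 59.0 CPM in CFA libraries and at 39.5, 44.1 and 46.4 CPM in saline libraries, with a log2 fold change of 0.29 ± 0.21. Mapk14, the p38 kinase, was at 115, 116 and 114 CPM in CFA libraries and at 117, 122 and 103 CPM in saline libraries. For all 3 genes the groups overlapped.

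Of the MHC class II genes, carried by activated microglia and border macrophages, 4 of 7 were tested, with 1 positive and 3 negative values, a median log2 fold change of -0.17 and 0 that passed. Cd74, the invariant chain, was at 5.82, 3.44 and 1.73 CPM in CFA libraries and at 5.28, 2.13 and 5.98 CPM in saline libraries. H2-DMa, which encodes a peptide-loading factor, was at 28.6, 25.9 and 28.1 CPM in CFA libraries and at 32.1, 29.7 and 29.2 CPM in saline libraries, without overlap and lower in CFA, as for 3.97% of all genes tested. Its log2 fold change was -0.14 ± 0.21.

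Markers of other immune cells were at low levels. Of 9 border macrophage genes 0 passed the filter, and their summed level lay between 0.769 and 4.41 CPM in CFA libraries and between 0 and 3.49 CPM in saline libraries, with Cbr2 at 0 counts throughout. Stab1, a scavenger receptor whose exons overlap Nt5dc2 on the opposite strand, was at 2.33, 2.82 and 0 CPM in CFA libraries and at 0.0895, 0.185 and 0 CPM in saline libraries. The highest border macrophage sum in each group, over 9 genes, was above the highest levels of the single genes Itgam and Trem2 in that group. The part of border macrophages in the microglia values was not tested. The lectin receptor gene Clec12a was at 0.499, 0 and 0 CPM in CFA libraries and at 2.86, 1.30 and 0 CPM in saline libraries. Stab1 made up 2.82 of the 4.41 CPM of the highest CFA sum, and Clec12a 2.86 of the 3.49 CPM of the highest saline sum. Of the 11 blood leukocyte genes found, 0 passed the filter and 8 had 0 counts in all 6 libraries. The summed leukocyte level was at most 0.998 CPM in any CFA library and 0.203 CPM in any saline library. The other 3 leukocyte genes, Ccr2, Cd79a and Nkg7, stayed at or below 0.499 CPM in every library.

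Glial and vascular markers gave the summed levels that accompany the microglia values. Astrocyte markers, 11 of 11 tested, had summed levels of 506 to 707 CPM in CFA libraries and 501 to 577 CPM in saline libraries, with 6 positive and 5 negative fold changes and a median of 0.14. At an unadjusted p under 0.05 there were 3 of these 11 markers, Fgfr3, Aldoc and Slc1a3, all higher in CFA without overlap, beside 1.35% of all genes tested by that p and 3.55% by lack of overlap, and none passed the adjusted threshold. Aldoc, which encodes an astrocyte aldolase, was at 168, 209 and 150.3 CPM in CFA libraries and at 131, 134 and 108 CPM in saline libraries. Fgfr3, a growth factor receptor of astrocytes, was at 6.66, 7.32 and 3.56 CPM in CFA libraries and at 3.49, 1.58 and 1.22 CPM in saline libraries. Oligodendrocyte precursor markers, 6 of 7 tested, lay between 30.95 and 44.3 CPM in CFA libraries and between 24.02 and 28.005 CPM in saline libraries, so that their sums did not overlap. They had 4 positive and 2 negative fold changes and a median of 0.47, and 0 passed the adjusted threshold. Without overlap, 2 of the 6 were higher in CFA and 1 lower, beside 3.55% and 3.97% of all genes tested. Olig1, a transcription factor of that lineage, was at 20.5, 23.9 and 17.7 CPM in CFA libraries and at 13.7, 10.3 and 13.1 CPM in saline libraries. It was the largest single part of the precursor sum in every library, and the sums were not compared without it. Gpr17, a receptor of differentiating precursors whose exons overlap Lims2 on the opposite strand, also did not overlap, at 5.57, 3.44 and 2.98 CPM in CFA libraries and 0.984, 0.556 and 0 CPM in saline libraries. Cspg4, the proteoglycan NG2 of precursors, did not overlap in the other direction, at 2.08, 2.204 and 0.961 CPM in CFA libraries and 3.76, 3.80 and 3.75 CPM in saline libraries (chosen after its values were seen). Oligodendrocyte markers, 8 of 8 tested, lay between 304 and 470 CPM in CFA libraries and between 341 and 422 CPM in saline libraries, with 3 positive and 5 negative fold changes and a median of -0.08. Vascular markers, 4 of 9 tested, lay between 4.42 and 9.32 CPM in CFA libraries and between 5.47 and 13.5 CPM in saline libraries, with 0 positive and 4 negative fold changes and a median of -0.57. In CFA replicate 3, oligodendrocyte and vascular sums were the lowest of all 6 libraries, and microglia, astrocyte and precursor sums the lowest of the CFA libraries. The part of these levels in the microglia values was not tested. Interferon-stimulated genes, by contrast, had their highest summed level in CFA replicate 3, 545 CPM, beside 236 CPM in replicate 1 and 237 CPM in replicate 2 of that group. Their lowest was 75.7 CPM in saline replicate 2, beside 189 CPM in replicate 1 and 182 CPM in replicate 3. All 14 were tested, with 14 positive fold changes, where 49.8% of all genes tested were positive. Their median log2 fold change was 1.55, and 0 passed the adjusted threshold. The 6 glutamatergic neuron markers had 4 positive and 2 negative fold changes and a median of 0.04.

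**Figure D5:**
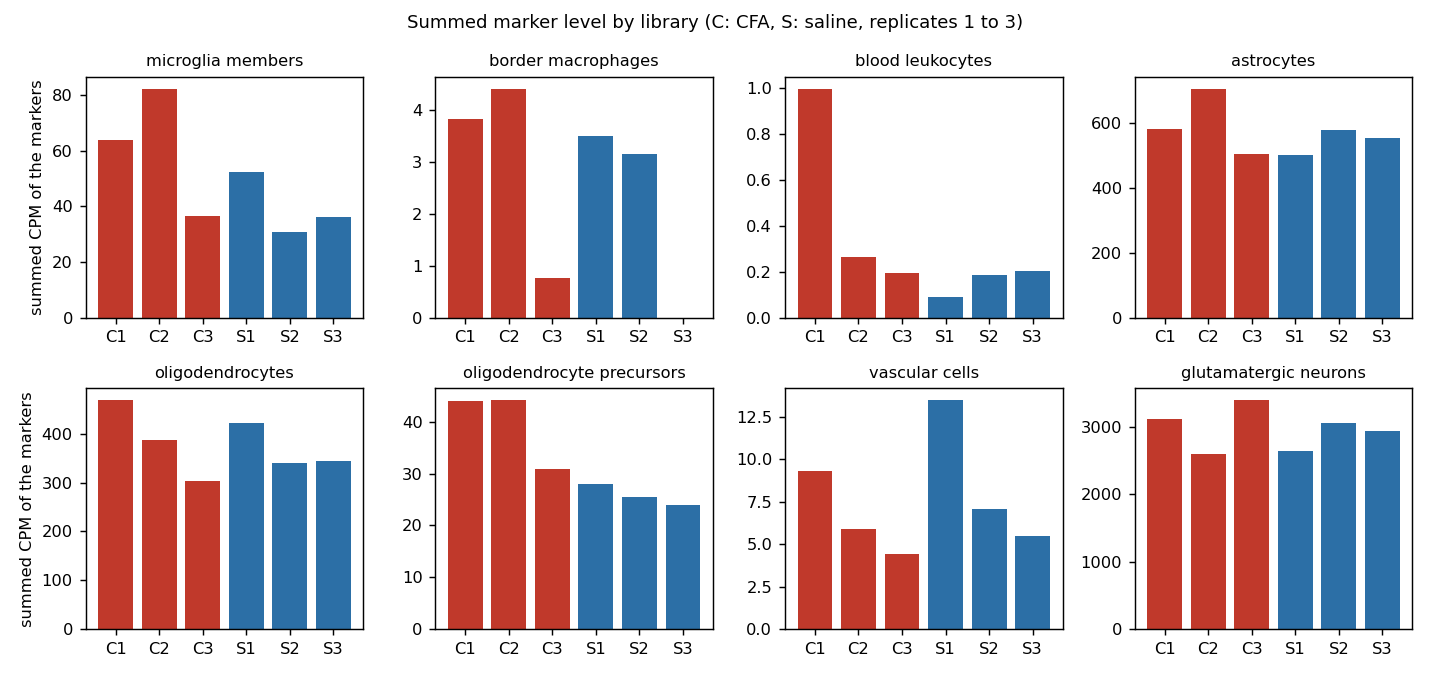
Summed CPM of the markers of 8 cell classes in each library, CFA (C) left of saline (S), each panel with its own scale from 0. Microglia sums run from 30.8 to 82.3 CPM and glutamatergic neuron sums from 2604 to 3404 CPM, while leukocyte sums stay at or below 0.998 CPM.

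Genes whose pattern over the 6 libraries was most like the mean log2 CPM of the 10 microglia genes were ranked among 11368 genes whose log2 CPM averaged 2 or more. The closest were Lrrc8d, a subunit of volume-regulated anion channels (Pearson r = 0.985), Mtfmt, a mitochondrial formyltransferase (0.976), Zfp35 (0.974) and Svip (0.974). They were followed by Bbs12, Gfap, Mmab, Abca1, Zfp420 and Spink10, with r from 0.963 to 0.957. None of these 10 was on a microglia list. The limit on log2 CPM kept 14 of the 22 other microglia-enriched genes out of the ranking, among them Lyn (r = 0.934) and Fcrls (0.837). Lyn had the highest r of those 14, below the 0.957 of the 10th gene. Of the 8 that were ranked, Sparc had the highest r, 0.896. Gfap, the intermediate filament of astrocytes, was on the astrocyte list. It was at 15.6, 15.2 and 8.07 CPM in CFA libraries and at 10.2, 5.01 and 10.8 CPM in saline libraries, with the low values in the same libraries as Tmem119. Over 6 libraries 71 of the ranked genes, 0.625%, had an r above 0.9, and the ranking describes these libraries only.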

How the data were processed

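RNA of 6 libraries of sorted nuclei was analysed, 3 CFA and 3 saline, grouped by their titles. The deposited values were raw counts per gene with exon length. Per the submitters' processing notes, reads were handled on build mm10 with HISAT2 2.2.1, featureCounts 2.0.1, SAMtools 1.13, Trim Galore and edgeR 3.32.1, whose roles the notes do not state. Settings for strand and multi-mapping reads: not given in the sources used here. Counts were tested with edgeR 4.0.16 (quasi-likelihood, TMM, filterByExpr) in R 4.3.3 with treatment as the only term and Benjamini-Hochberg adjustment over 13560 genes at a threshold of 0.05. The procedure was checked on simulated data with log2 fold changes of at least 2 in size planted in 200 genes, at a common dispersion for all genes. That check does not cover smaller changes or genes with a wider spread. SE and 95% intervals of log2 fold changes were derived from the F statistic. The common biological coefficient of variation was 26.8%. Every pair of libraries differed beyond sampling noise (the lowest chi-square per degree of freedom was 17.3). CPM is scaled by effective library size, and log2 CPM uses a prior count of 2. Counts of 0 allow up to 3 counts (a one-sided limit, where Poisson intervals are two-sided), and such floors and intervals cover counting error only, because amplified reads are not independent molecules. The members and gene lists were chosen with earlier results of these data known, so lists are given by counts and medians without a test. The text names the 10 members and, from each other list, the 2 most abundant genes and the 2 with the smallest p, of which the glial, vascular, neuronal and interferon lists are given mostly by their sums. Genes with 0 counts throughout, and others marked in the text, were named after their values were seen. Spi1, Itgb2, Ptprc, Sparc, Lyn, Nkg7 and Slc1a3 were also named outside this rule, with their values already seen. Some genes meeting this rule are not reported here. Promoters are from RefSeq, GRCm38.p6. Alternatives covered normalization, filters, DESeq2 1.42.0, limma-voom (limma 3.58.1), a replicate block and leaving out each library.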

Additional observations from a re-analysis of the deposited data

How the results depend on the processing

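Over all genes 0 were called with RLE or library-size scaling, with a 5 CPM filter in 3 libraries, with limma-voom and at a threshold of 0.1. The count was 9 without a low-count filter and 5 with DESeq2, and it ran from 0 to 5 when single libraries were left out, with 5 without saline replicate 3. With a replicate block it was 6. Libraries with the same replicate number did not deviate together (correlations of -0.079, 0.025 and -0.069). With 3 libraries a group this check cannot exclude a shared batch, and the labels do not say what the numbers mean. None of the called genes in any of these fits was one of the 10 microglia genes. Of 126 refits of single microglia genes, 123 kept the direction: Tmem119 (-0.10) and Trem2 (-0.40) turned negative without saline replicate 2, and C1qa (-0.19) without CFA replicate 2. With 1 library left out, log2 fold changes ran from -0.10 to 0.60 for Tmem119, from -0.40 to 1.129 for Trem2 and from -0.19 to 0.91 for C1qa. The median of the 10 ran from 0.29 without CFA replicate 2 to 0.98 without saline replicate 1, and the log2 ratio of the summed level from 0.33 without CFA replicate 2 to 0.88 without CFA replicate 3. The sum ratio was 0.45 without Csf1r. The 5 CPM filter kept 6 of the 10 genes. The Itgam fold change of 7.13 without saline replicate 3 is set by zeros and is no bound.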
